A study of Bos taurus with 8 samples.

Results

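Neutrophils kill microbes with proteins that they store in cytoplasmic granules, and the 10 genes described here encode such proteins or are expressed with them. They are 5 cathelicidins (CATHL1, CATHL2, CATHL3, CATHL4 and CATHL6), the serine proteases ELANE and PRSS57, the bactericidal protein BPI, the vitamin B12 binder TCN1 and the transglutaminase TGM3. They were chosen by name, with earlier results of these data known, and all probes whose transcript accession belonged to these symbols were taken. This gave 21 of the 43653 noncontrol probes of a bovine Agilent array, and all 10 genes were among the 15137 genes tested. Of the 21 probes, 17 passed the filter on dim signals, which asks that all arrays of some group read a probe well above background.

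RNA came from peripheral blood mononuclear cells (PBMCs), the blood fraction of lymphocytes and monocytes, in 3 groups of cattle. Lame crossbred animals gave 4 arrays, normal crossbred animals gave 2, and normal Tharparkar animals, an Indian zebu breed, gave 2. The labels give no age, treatment, breeds behind the cross or reason for the lameness, and do not say whether an RNA sample was 1 animal or a pool. RNA was run in technical duplicate, so the 4 lame arrays are the duplicates of RNA numbers R1 and R2. The labels do not settle whether the 2 arrays of each normal group (R1 and R2) are 1 RNA run in duplicate or 2 RNA samples. The spread of each normal group, and with it the SEs and p-values here, may therefore be technical. They reflect how arrays vary, not how animals vary, and the p-values are too small to compare animals.

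Granules form in sequence while a granulocyte matures in the bone marrow, and each kind is filled with what the cell transcribes at that stage. Azurophil granules form first and hold the elastase-like proteases and BPI, specific granules follow and hold lactoferrin and the B12 binder, and ruminant neutrophils also have a class of large granules that holds the cathelicidin precursors. Cathelicidins share a conserved propiece and differ in the antimicrobial peptide that is cut from its end. Most granule transcripts are abundant in marrow precursors and low in mature blood neutrophils. Neutrophils are denser than mononuclear cells and are largely removed when PBMCs are isolated, so few of them contribute to such RNA. Which cells gave the granule transcripts was not tested. In RNA from a mixed tissue, fewer cells of a type and less RNA per cell cannot be told apart.

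Values are log2 of the background-subtracted signal minus the array's 75th percentile, so that 0 is the level of a probe at that percentile and each unit is a doubling. Levels of different probes are not comparable. A gene stands at its kept probe with the highest mean, and calls were made at 0.05 on the adjusted p (limma, 2-sided, Benjamini-Hochberg over 15137 genes). Arrays of the same lame number or normal group correlated at 0.981 to 0.997 over the 15137 genes, against 0.951 to 0.970 between the lame numbers and 0.931 to 0.966 between groups. The normal pairs were at 0.997 (crossbred) and 0.995 (Tharparkar), and the lame duplicates at 0.995 (R1) and 0.981 (R2). The array of lame R2_2 stood apart: its median raw signal was 192.5, against 74.0 to 102.0 on the other arrays, its negative controls read 107.0 against 53.0 to 65.0, and 70.9% of its probes were well above background, against 52.8% to 61.4%. Results for the dim cathelicidin probes, PTX3 and CXCR2 are therefore also given without it. All arrays lay on 2 slides, and each slide held arrays of all 3 groups.

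In lame arrays, 4 of these 10 genes fell against normal crossbred arrays and 6 fell against Tharparkar arrays, of which CATHL1, CATHL3 and CATHL4 passed the filter only through the Tharparkar arrays and so had to be high there. Against normal crossbred arrays, TGM3, TCN1, ELANE and CATHL1 fell and PRSS57 rose, that is 4 members lower and 1 higher of 10, where 6.33% and 3.28% of all genes were called lower and higher. The median log2 fold change of the members was -1.40, against -0.04 over all genes. Against Tharparkar arrays, TGM3, TCN1 and ELANE fell, as did these 3 cathelicidins, and 0 of 10 rose, with 10.7% of all genes called lower and 12.6% higher, and the members' median was -2.14, against -0.01 over all genes. Between the normal groups, PRSS57 and TGM3 were lower in normal crossbred than in Tharparkar arrays and 0 were higher, where 6.88% of all genes were called lower and 11.8% higher. The members' median there was -0.85, against 0.01 over all genes. Under other scalings the split of all calls into higher and lower moved. In lame against normal crossbred arrays it was 497 and 958, against 135 and 493 with normexp background correction and 678 and 779 with the percentile taken over detected probes. In lame against Tharparkar arrays it was 1902 and 1620, against 717 and 1257 with normexp. At an unadjusted p under 0.05, also 0 members were higher than in Tharparkar arrays, in lame or in normal crossbred arrays (limma). Of all 15137 genes, 2985 and 3002 were higher at that threshold. The comparisons share arrays, so their values are given side by side and not as support for each other. The medians and these counts also cover the 3 cathelicidins that the filter kept through the Tharparkar arrays.

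**Figure D1:**
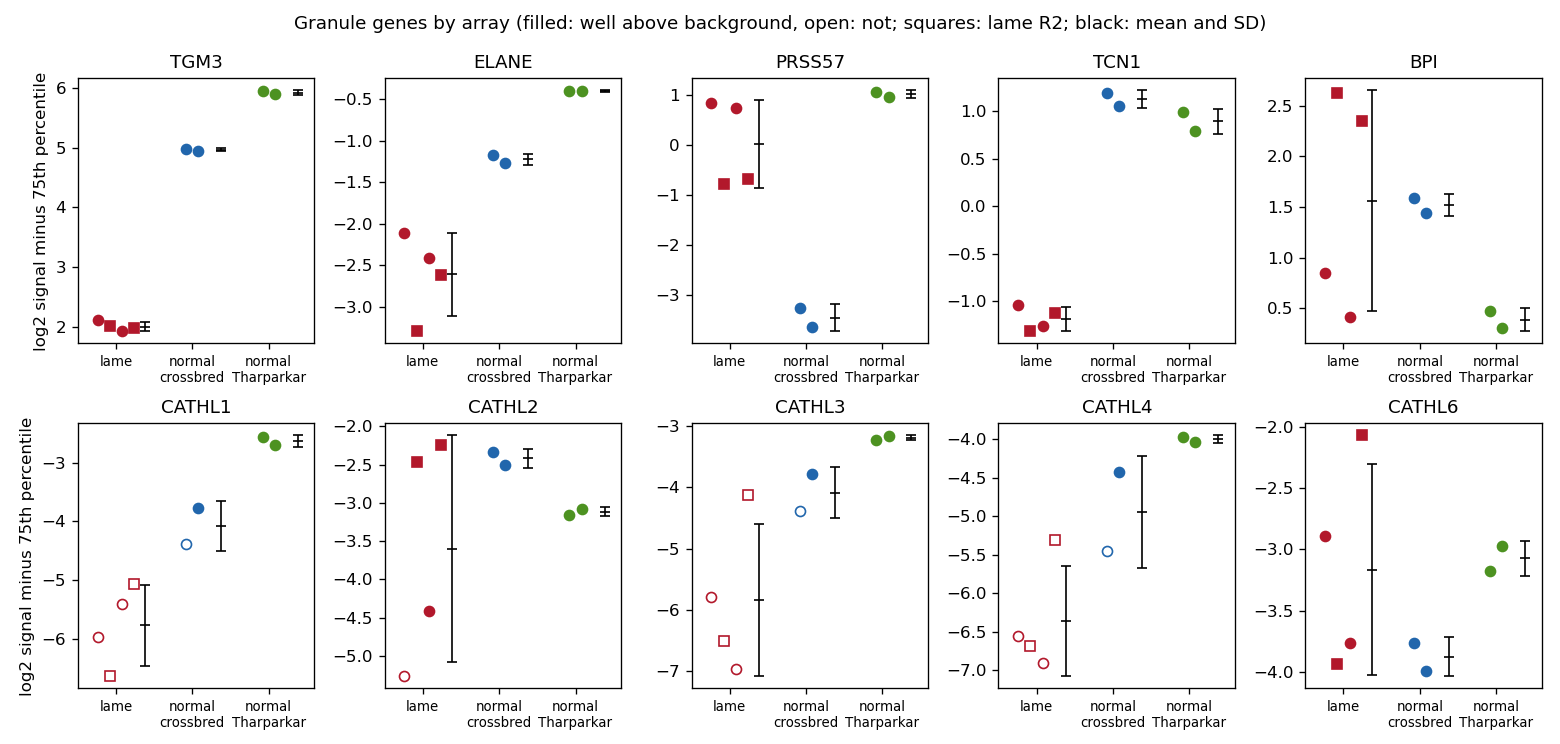
Log2 signal minus the array's 75th percentile (y axis, a separate scale for each gene) for the 10 granule genes in lame crossbred, normal crossbred and normal Tharparkar arrays; points are arrays, squares are lame R2, open symbols are not well above background, and black bars give the mean and SD. TGM3 and TCN1 show tight groups, PRSS57 is lowest in both normal crossbred arrays, and BPI splits by lame RNA number.

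ELANE encodes neutrophil elastase, a protease of azurophil granules. Its level was -2.11, -2.41, -3.29 and -2.61 in lame R1_1, R1_2, R2_1 and R2_2, against -1.18 and -1.27 in normal crossbred arrays and -0.40 and -0.41 in Tharparkar arrays. The groups did not overlap, with lame lowest, normal crossbred between and Tharparkar highest. ELANE was 2.61-fold lower in lame than in normal crossbred arrays (log2 difference -1.39, SE 0.30, adjusted p = 0.0327) and 4.61-fold lower in lame than in Tharparkar arrays (-2.21, SE 0.30, adjusted p = 0.00309). The step between normal crossbred and Tharparkar was -0.82 (SE 0.35, adjusted p = 0.148). A further probe gave the same order, with fold changes of -2.08, -2.85 and -0.77 for these comparisons, and was well above background on 2 of 4 lame arrays, those of R1.

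The call of ELANE between lame and normal crossbred arrays was not kept with the slide as a block (adjusted p = 0.0639), or without lame R1_2 (0.0522), normal crossbred R1 (0.255) or R2 (0.208), or either Tharparkar array (0.0733). Nor was it kept with a random block for the lame RNA number (0.108) or with duplicates averaged (0.745). Of 23 alternatives, 11 kept this call of ELANE. The difference itself was -1.53 on slide 1 and -1.24 on slide 2. Against Tharparkar, ELANE was -2.31 on slide 1 and -2.10 on slide 2, and the call was kept without each array in turn (adjusted p 0.00196 to 0.0396). Without lame R2_1, ELANE was also called lower in normal crossbred than in Tharparkar arrays (adjusted p = 0.0374).

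PRSS57 encodes neutrophil serine protease 4, an azurophil granule enzyme that, in human, cuts after arginine. It stood at 0.84 and 0.75 in lame R1 and at -0.78 and -0.69 in lame R2, against -3.26 and -3.65 in normal crossbred arrays and 1.08 and 0.96 in Tharparkar arrays. Unlike ELANE, it was lowest in both normal crossbred arrays, which lay apart from all others, and was highest in Tharparkar arrays. PRSS57 was 11.2-fold higher in lame than in normal crossbred arrays (log2 difference 3.49, SE 0.51, adjusted p = 0.00819) and 22.3-fold lower in normal crossbred than in Tharparkar arrays (-4.48, SE 0.59, adjusted p = 0.00329). Lame against Tharparkar was -0.99 (SE 0.51, adjusted p = 0.201).

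Both probes of PRSS57 were well above background on all 8 arrays. The dimmer probe gave 2.68 for lame against normal crossbred, -3.90 for normal crossbred against Tharparkar and -1.22 for lame against Tharparkar, and the last difference passed in a fit of all probes (adjusted p = 0.0333). Lame R1 exceeded lame R2 by 1.53 at the brighter probe and by 0.75 at the dimmer. On slides 1 and 2, lame against normal crossbred was 3.29 and 3.69, and normal crossbred against Tharparkar was -4.34 and -4.62. The lame call rests on 2 normal crossbred arrays and was not kept without R1 (3.68, adjusted p = 0.0844) or without R2 (3.29, adjusted p = 0.103), whereas the difference between the normal groups was called without each array in turn (adjusted p 0.0023 to 0.0363).

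BPI, the bactericidal/permeability-increasing protein, binds lipopolysaccharide of Gram-negative bacteria and is stored in azurophil granules. It read 0.85 and 0.41 in lame R1 and 2.63 and 2.35 in lame R2, against 1.59 and 1.44 in normal crossbred arrays and 0.47 and 0.30 in Tharparkar arrays. Lame R2 lay above every other array, and lame R1 lay below both normal crossbred arrays and near the Tharparkar arrays, with R1_2 between them. The group differences were 0.04 for lame against normal crossbred (SE 0.62, adjusted p = 0.978), 1.18 for lame against Tharparkar (SE 0.62, adjusted p = 0.208) and 1.13 for normal crossbred against Tharparkar (SE 0.71, adjusted p = 0.318). Set against normal crossbred arrays without the other lame RNA number, lame R1 differed by -0.88 and lame R2 by 0.97. Each of these is 1 RNA in duplicate, so a p-value for it would not measure how RNA samples vary. The dimmer BPI probe split the same way, with lame R1 minus lame R2 at -3.04, against -1.86 at the brighter probe.

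TCN1 encodes haptocorrin, which binds vitamin B12 and is a classic content of specific granules. It measured -1.04, -1.26, -1.32 and -1.13 in lame R1_1, R1_2, R2_1 and R2_2, against 1.19 and 1.06 in normal crossbred arrays and 0.99 and 0.80 in Tharparkar arrays. All 4 lame arrays lay below both normal groups, and the lame RNA numbers differed by 0.07. TCN1 was 4.96-fold lower in lame than in normal crossbred arrays (log2 difference -2.31, SE 0.15, adjusted p = 0.000455) and 4.22-fold lower in lame than in Tharparkar arrays (-2.08, SE 0.15, adjusted p = 0.000261). The normal groups differed by 0.23 (SE 0.17, adjusted p = 0.389).

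The second probe of TCN1 gave -2.55 for lame against normal crossbred and -3.00 for lame against Tharparkar. There the normal groups stood in the other order (-0.46, adjusted p = 0.420 in the fit of all probes), so which normal group was higher depends on the probe. Lame against normal crossbred was -2.37 on slide 1 and -2.25 on slide 2, and lame against Tharparkar was -2.17 and -1.99. Both lame calls were kept without each array in turn (highest adjusted p 0.0164 and 0.00757), but not with duplicates averaged (adjusted p 0.0506 and 0.0539).

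TGM3 encodes a transglutaminase that cross-links proteins, best known from epidermis and hair follicle. It had the largest measured fall of the 10 members in both lame comparisons, though CATHL1, CATHL3 and CATHL4, below detection in lame arrays, cannot be ranked. It read 2.11, 1.93, 2.02 and 1.98 in lame R1_1, R1_2, R2_1 and R2_2, against 4.98 and 4.95 in normal crossbred arrays and 5.95 and 5.90 in Tharparkar arrays. The groups were narrow and did not overlap, with an SD of 0.08 in lame, 0.03 in normal crossbred and 0.04 in Tharparkar arrays. TGM3 was 7.76-fold lower in lame than in normal crossbred arrays (log2 difference -2.96, SE 0.13, adjusted p = 7.24e-05), 15.0-fold lower in lame than in Tharparkar arrays (-3.91, SE 0.13, adjusted p = 1.26e-05) and 1.94-fold lower in normal crossbred than in Tharparkar arrays (-0.96, SE 0.15, adjusted p = 0.00561). On slides 1 and 2, lame against normal crossbred was -2.92 and -2.99, and lame against Tharparkar was -3.88 and -3.94. Both lame calls were kept under all 23 alternatives tried, whereas the call between the normal groups was kept under 17 and not without any of the 4 normal arrays (adjusted p 0.0517 to 0.0634).

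The other 3 probes of TGM3 gave the same order of groups with other sizes. They ranged over -3.57 to -1.80 for lame against normal crossbred, -5.81 to -3.88 for lame against Tharparkar and -2.59 to -2.08 for normal crossbred against Tharparkar. Lame against Tharparkar passed at all 3 in the fit of all probes (adjusted p 0.0017 to 0.00647), lame against normal crossbred at 1 of them (adjusted p = 0.0216). They also read lower in lame R1 than in lame R2, with differences of -1.93 to -1.75, whereas the brightest probe differed by 0.02 between these RNA numbers. On 2 or 3 of the 4 lame arrays they were well above background. Of 12 epithelial markers on the array, 5 were measured, and 2 of these were well above background on all 8 arrays. EPCAM, well above background on 2 of 4 lame arrays, fell in lame against normal crossbred (-2.63, adjusted p = 0.00165) and Tharparkar arrays (-1.66, adjusted p = 0.00511). It alone was called lower, where 6.33% and 10.7% of all genes were. In these comparisons 0 markers rose, against 3.28% and 12.6% of all genes. With so few markers measured, whether the list moved with TGM3 could not be told.

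**Figure D2:**
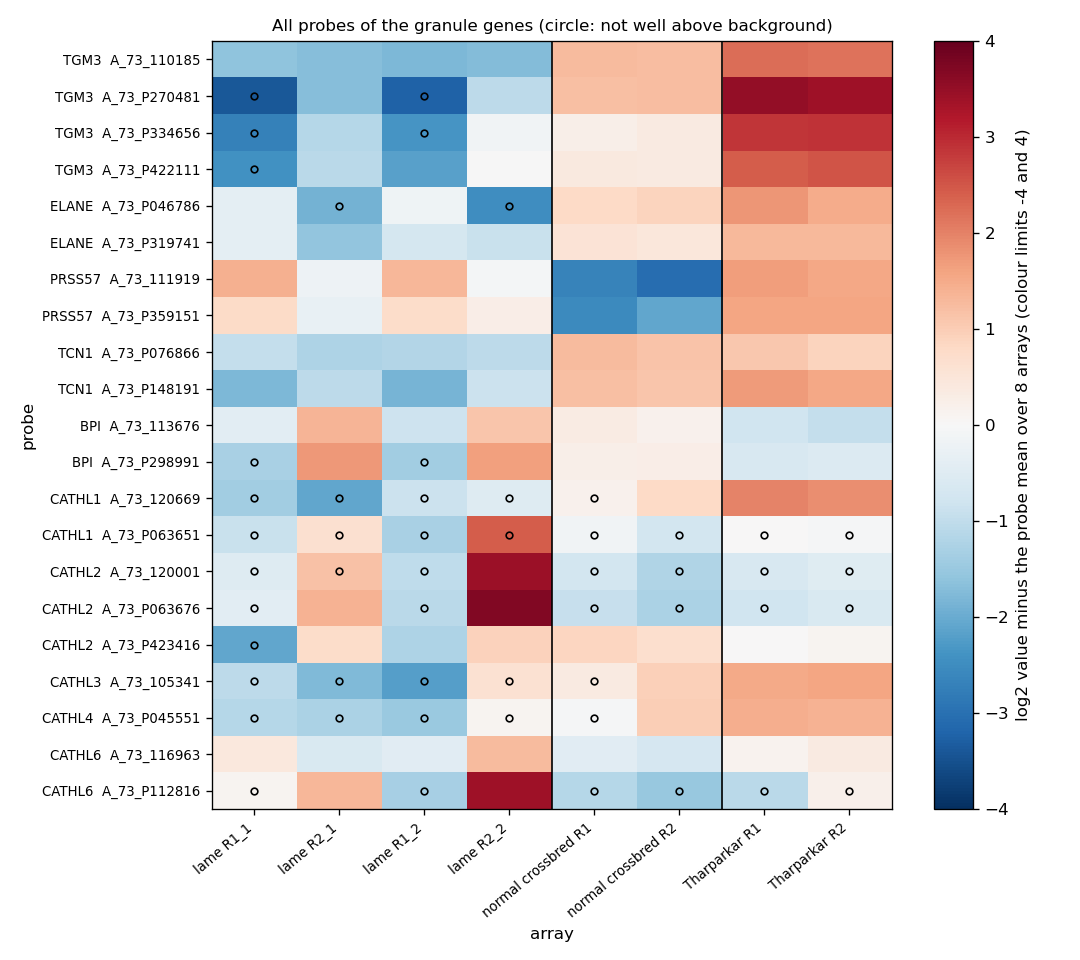
All 21 probes of the 10 genes (rows) on the 8 arrays (columns), coloured by log2 value minus the probe's mean over the arrays; a circle marks a value not well above background. TGM3, ELANE and TCN1 probes are blue in lame columns, PRSS57 is blue in the normal crossbred columns, and 4 cathelicidin probes are red only in lame R2 columns.

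The cathelicidin probes were dim. Only 1 of 9 probes of the 5 cathelicidin members was well above background on all 8 arrays, against 7 of 12 probes of the other members, and 4 of the 9 were not kept. In the RefSeq table, 7 cathelicidin genes lie on 1 chromosome with 4 other genes of the table between the first and the last. Order along it was CATHL4, CATHL1, CATHL3, CATHL2, CATHL6 and CATHL5, with CAMP set off at the other end. The members share the sequence of the propiece, and whether a probe also reads a neighbour was not tested.

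CATHL1 encodes a cyclic bactenecin, a short peptide closed by a disulfide bond. It stood at -5.97, -5.41, -6.64 and -5.06 in lame R1_1, R1_2, R2_1 and R2_2, against -4.38 and -3.77 in normal crossbred arrays and -2.57 and -2.71 in Tharparkar arrays. The groups did not overlap, but CATHL1 was not well above background on any of the 4 lame arrays and on 1 of 2 normal crossbred arrays, R1. The lame level is therefore a bound: CATHL1 was at least 3.28-fold lower in lame than in Tharparkar arrays (measured log2 fold change -3.13, SE 0.42, adjusted p = 0.00292). The measured difference between lame and normal crossbred arrays was -1.69 (SE 0.42, adjusted p = 0.0495). It has no bound, since normal crossbred R1 was itself not well above background. For the bound, each lame array contributed its detection floor, that is the dimmest signal it still rated well above background, unless CATHL1 itself was brighter. Normal crossbred against Tharparkar was -1.44 (SE 0.49, adjusted p = 0.0822).

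CATHL1 passed the filter only through the Tharparkar arrays, and every alternative read the same probe, so agreement among them is not separate support. The fall of CATHL1 against Tharparkar was called under all 22 alternatives that gave a value, and without lame R2_2 it was -3.37 (adjusted p = 0.00173). Against normal crossbred arrays it was called under 7 of 22, and not with a random block for the lame RNA number (adjusted p = 0.278) or with duplicates averaged (0.366). It was -1.93 without lame R2_2 (adjusted p = 0.0219) and -1.40 without lame R2_1 (adjusted p = 0.0455), and it was not called without any of the other 6 arrays (adjusted p 0.0666 to 0.345). Without lame R2_1 or R2_2, CATHL1 was called lower in normal crossbred than in Tharparkar arrays (adjusted p 0.0338 and 0.0411).

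CATHL3 and CATHL4 encode proline-rich Bac7 and tryptophan-rich indolicidin and showed the same order of groups. CATHL3 read -5.78, -6.95, -6.50 and -4.13 in lame R1_1, R1_2, R2_1 and R2_2, against -4.38 and -3.79 in normal crossbred arrays and -3.23 and -3.17 in Tharparkar arrays. CATHL4 read -6.56, -6.90, -6.68 and -5.31 in the same lame arrays, against -5.45 and -4.43 in normal crossbred arrays and -3.97 and -4.04 in Tharparkar arrays. Neither was well above background on any lame array or on normal crossbred R1, and lame R2_2 gave the highest lame value of both and overlapped with the normal crossbred arrays.

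CATHL3 was at least 2.23-fold lower in lame than in Tharparkar arrays (measured -2.64, SE 0.71, adjusted p = 0.035), and CATHL4 at least 1.28-fold lower (measured -2.36, SE 0.47, adjusted p = 0.0127). Lame against normal crossbred gave -1.75 for CATHL3 (SE 0.71, adjusted p = 0.172) and -1.42 for CATHL4 (SE 0.47, adjusted p = 0.11). Without lame R2_2, the measured differences from normal crossbred arrays were -2.33 for CATHL3 (adjusted p = 0.011) and -1.77 for CATHL4 (adjusted p = 0.0152). Both genes were not well above background on the 3 remaining lame arrays, so these sizes rest on signals below detection. Without lame R2_2, lame against Tharparkar was -3.21 for CATHL3 and -2.71 for CATHL4. Against Tharparkar, CATHL3 was not called with the slide as a block (adjusted p = 0.0558) or without any array other than lame R2_2 (adjusted p 0.0525 to 0.178). On slides 1 and 2 the difference was -2.91 and -2.37 for CATHL3, -2.65 and -2.07 for CATHL4 and -3.74 and -2.53 for CATHL1. CATHL4 was not called there without Tharparkar R1 (adjusted p = 0.0996) or R2 (0.0899). With a random block for the lame RNA number, neither was called against Tharparkar (adjusted p 0.186 for CATHL3 and 0.066 for CATHL4). Of 22 alternatives that gave a value, 10 kept the call of CATHL3 there and 18 that of CATHL4.

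CATHL2 encodes proline-rich Bac5, and CATHL6 an alpha-helical peptide, and neither was called in any comparison. CATHL2 read -5.27 and -4.42 in lame R1 and -2.46 and -2.25 in lame R2, against -2.33 and -2.50 in normal crossbred arrays and -3.16 and -3.08 in Tharparkar arrays. As with BPI, the lame group split by RNA number, with lame R2 at the normal crossbred level and lame R1 below all normal arrays. CATHL2 gave -1.18 for lame against normal crossbred (SE 0.83, adjusted p = 0.424), -0.48 for lame against Tharparkar (SE 0.83, adjusted p = 0.709) and 0.70 for normal crossbred against Tharparkar (SE 0.96, adjusted p = 0.659). Without lame R2_2 the lame differences were -1.63 and -0.93 (adjusted p 0.205 and 0.386).

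CATHL6 was well above background on all 8 arrays. It read -2.89, -3.76, -3.93 and -2.07 in lame R1_1, R1_2, R2_1 and R2_2, against -3.77 and -3.99 in normal crossbred arrays and -3.18 and -2.97 in Tharparkar arrays. Duplicates of the same lame RNA differed by more than the normal groups did from each other, and the lame arrays overlapped with both normal groups. Its differences were 0.71 for lame against normal crossbred (SE 0.50, adjusted p = 0.419), -0.09 for lame against Tharparkar (SE 0.50, adjusted p = 0.911) and -0.80 for normal crossbred against Tharparkar (SE 0.57, adjusted p = 0.377).

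Probes of the same cathelicidin disagreed. The 4 probes that were not kept, 1 of CATHL1, 2 of CATHL2 and 1 of CATHL6, read lower in lame R1 than in lame R2, with differences of -3.29 to -2.63, and none of them was well above background on a lame R1, normal crossbred or Tharparkar array. At the dimmer CATHL1 probe, which was not well above background on any array, lame against normal crossbred was 0.66, opposite in sign to the -1.69 of the kept probe. Of the other 2 cathelicidin genes, CATHL5 read -4.98, -4.65, -4.10 and -1.96 in lame R1_1, R1_2, R2_1 and R2_2, against -6.00 and -6.32 in normal crossbred arrays and -4.71 and -4.37 in Tharparkar arrays, and was well above background on 3 of 4 lame arrays and 0 of 4 normal arrays. CAMP, the table's symbol for CATHL7, was well above background on lame R2_2 alone (-2.94), the array with the high background.

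**Figure D3:**
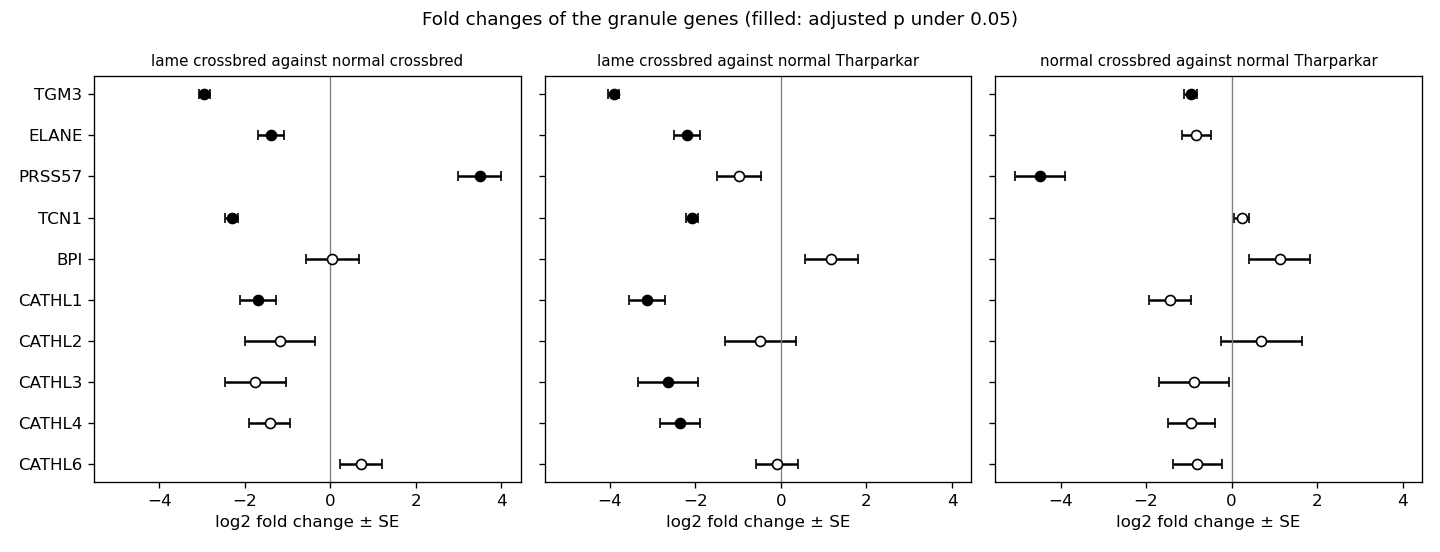
Log2 fold change ± SE of the 10 granule genes in the 3 comparisons, with filled points for an adjusted p under 0.05. TGM3 lies at -2.96 and -3.91 in the lame comparisons, and PRSS57 at 3.49 against normal crossbred and -0.99 against Tharparkar.

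Other granule genes moved in both directions, in shares to be read against those of all genes: 3.28% higher and 6.33% lower in lame against normal crossbred arrays, 12.6% and 10.7% in lame against Tharparkar arrays, and 11.8% and 6.88% in normal crossbred against Tharparkar arrays. Of 15 further azurophil granule genes measured, 1 rose and 1 fell in lame against normal crossbred arrays, 3 rose and 0 fell against Tharparkar arrays, and 3 were higher and 1 lower in normal crossbred than in Tharparkar arrays. MPO, the myeloperoxidase of these granules, read -1.81, -2.28, -1.97 and -0.86 in lame R1_1, R1_2, R2_1 and R2_2, against 0.03 and -0.08 in normal crossbred arrays and -1.93 and -2.27 in Tharparkar arrays. It fell in lame against normal crossbred arrays (-1.70, SE 0.37, adjusted p = 0.0314) and was higher in normal crossbred than in Tharparkar arrays (2.07, SE 0.42, adjusted p = 0.0159). MPO and PRSS57, both azurophil genes, thus had opposite orders: normal crossbred arrays were highest for MPO and lowest for PRSS57. CTSC, the cathepsin that activates granule serine proteases, was higher in lame (2.37, adjusted p = 0.0031) and in normal crossbred arrays (1.64, adjusted p = 0.0239) than in Tharparkar arrays. The lysosomal genes CTSB (0.77 in lame against normal crossbred) and GLB1 (0.48 in lame and 0.95 in normal crossbred against Tharparkar) were higher too. GM2A, a lysosomal activator protein, was not well above background on either Tharparkar array and was at least 2.23-fold higher in lame than in Tharparkar arrays (measured 1.65, adjusted p = 0.0203).

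Of 11 specific granule genes measured, 1 rose and 1 fell in lame against normal crossbred arrays, 1 rose and 4 fell in lame against Tharparkar arrays, and 0 were higher and 1 lower in normal crossbred than in Tharparkar arrays. The pentraxin PTX3, a soluble pattern recognition molecule, read -6.14, -5.59, -6.53 and -2.92 in lame R1_1, R1_2, R2_1 and R2_2, against -1.12 and -1.11 in normal crossbred arrays and 1.16 and 0.95 in Tharparkar arrays. It fell in lame against normal crossbred (-4.18, SE 0.91, adjusted p = 0.0326) and Tharparkar arrays (-6.35, SE 0.91, adjusted p = 0.0037), and was well above background on 1 of 4 lame arrays, that of R2_2 with the high background. Without that array the measured differences were -4.98 and -7.14, with PTX3 below detection on the 3 lame arrays left. LTF, the iron binder lactoferrin, was well above background on 3 of 4 lame arrays and fell in lame against Tharparkar arrays (-2.77, SE 0.65, adjusted p = 0.0219), and haptoglobin (HP) rose in lame against normal crossbred (2.08, SE 0.33, adjusted p = 0.011) and Tharparkar arrays (1.16, SE 0.33, adjusted p = 0.043). CYBA, a subunit of the NADPH oxidase, was lower in normal crossbred than in Tharparkar arrays (-0.75, adjusted p = 0.0284).

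Among 10 gelatinase granule and secretory vesicle genes, 2 rose and 1 fell in lame against Tharparkar arrays. MMP9, the gelatinase itself, fell in lame against normal crossbred (-1.69, SE 0.27, adjusted p = 0.0112) and Tharparkar arrays (-1.92, SE 0.27, adjusted p = 0.00341). SLC11A1, a metal transporter of phagosomes, rose in lame against Tharparkar arrays (2.40, adjusted p = 0.00588), 1 of 2 of which read it well above background, as did arginase ARG1 (0.76, adjusted p = 0.0336). Of 4 beta-defensins, which bovine neutrophils also store, DEFB7 rose in lame against normal crossbred arrays (0.93, adjusted p = 0.0348). DEFB7 (1.29), DEFB10 (0.85) and DEFB13 (2.20) rose against Tharparkar arrays, where 12.6% of all genes were called higher and 10.7% lower. DEFB13 read 0.54 and 0.87 in lame R1 and 2.22 and 2.13 in lame R2. In any comparison 0 were called lower. DEFB4A gave -2.08 in normal crossbred against Tharparkar (adjusted p = 0.0592) and 1.88 in lame against normal crossbred arrays (adjusted p = 0.0763), neither called.

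**Figure D4:**
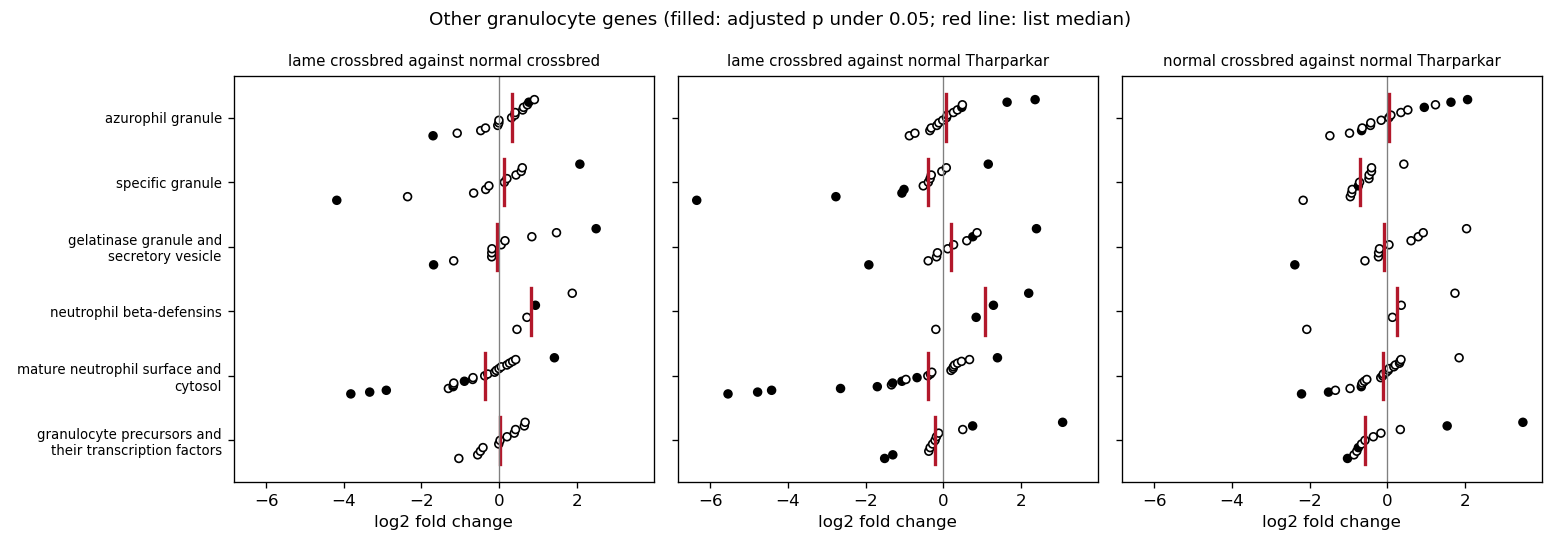
Log2 fold changes of other granulocyte genes by list (rows) in the 3 comparisons; points are genes, filled at an adjusted p under 0.05, and red lines are list medians. Called genes lie on both sides of 0 in most rows, and the mature neutrophil row has 5 called lower and 1 higher in lame against normal crossbred arrays.

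Of 21 mature neutrophil genes measured, 5 fell and 1 rose in lame against normal crossbred arrays (median -0.37), where 6.33% of all genes were called lower and 3.28% higher. Against Tharparkar arrays 8 fell and 1 rose in lame arrays (median -0.40), where 10.7% of all genes were called lower and 12.6% higher. In normal crossbred against Tharparkar arrays 3 were lower and 0 higher (median -0.12), where these shares were 6.88% and 11.8%. CXCR2, a receptor for interleukin-8, read -3.91, -4.01, -4.95 and -3.72 in lame R1_1, R1_2, R2_1 and R2_2, against -0.70 and -0.93 in normal crossbred arrays and 1.60 and 1.19 in Tharparkar arrays. Its groups lay in the order of TGM3 and ELANE and did not overlap. CXCR2 fell in lame against normal crossbred (-3.33, adjusted p = 0.00195) and Tharparkar arrays (-5.54, adjusted p = 0.000158), and was lower in normal crossbred than in Tharparkar arrays (-2.21, adjusted p = 0.00981). It was well above background on 2 of 4 lame arrays, and without lame R2_2 the lame differences were -3.48 and -5.69. The related CXCR1 (-3.82 and -4.78) and the urokinase receptor PLAUR (-2.91 and -4.42) fell in lame against normal crossbred and Tharparkar arrays too. PLAUR (-1.51) and the Fc receptor FCGR2B (-0.67) were lower in normal crossbred than in Tharparkar arrays.

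The calprotectin genes S100A8 and S100A9 and their relative S100A12, which are abundant cytosolic proteins of neutrophils and monocytes, were not called in any comparison. S100A8 lay between 5.99 and 6.41 in lame arrays, against 6.47 and 6.57 in normal crossbred and 6.62 and 6.64 in Tharparkar arrays. The summed signal of the 21 mature neutrophil genes, each relative to the 75th percentile on a linear scale, was 303.2 to 367.7 in lame, 367.8 to 378.8 in normal crossbred and 420.3 to 428.1 in Tharparkar arrays. The summed signal of the 11 specific granule genes was 76.0 to 97.2 in lame, 93.6 to 98.8 in normal crossbred and 141.9 to 150.2 in Tharparkar arrays. Such sums follow the brightest probes and do not measure a class of cells or granules. In the specific granule sum, the bright CYBA read 5.36 to 5.78 in lame, 5.80 and 5.89 in normal crossbred and 6.54 and 6.64 in Tharparkar arrays. Of the 21 mature neutrophil genes, 17 were well above background on all 8 arrays, so transcripts of most genes on this list were detected in all 3 groups. The part of neutrophil number in the results for the granule genes was not tested.

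Of 11 granulocyte precursor genes, 0 were called in lame against normal crossbred arrays (median 0.02), where 3.28% of all genes were called higher and 6.33% lower. At an unadjusted p under 0.05 there were 1 higher and 3 lower (limma), against 1526 and 2377 of all 15137 genes. In lame against Tharparkar arrays 2 rose and 2 fell, where 12.6% of all genes were called higher and 10.7% lower. In normal crossbred against Tharparkar arrays 2 were higher and 2 lower, where these shares were 11.8% and 6.88%. MYB, a transcription factor of early progenitors, was not well above background on either Tharparkar array. It was higher in lame arrays (measured 3.08, adjusted p = 0.0292), with no bound, as it was well above background on 3 of 4 of them. In normal crossbred arrays it was at least 2.53-fold higher (measured 3.49, adjusted p = 0.0357). However, MYB passed the filter only through the normal crossbred arrays and so had to be high there. The counts of higher genes against Tharparkar include it. CEBPB, which drives emergency granulopoiesis in mouse, was lower in lame (-1.51, adjusted p = 0.00292) and normal crossbred arrays (-1.03, adjusted p = 0.0239), and IRF8, a monocyte and dendritic cell factor, was lower in lame arrays (-1.30, adjusted p = 0.00248). CEBPE, which controls secondary granule genes in human and mouse, was higher in normal crossbred than in Tharparkar arrays (1.54, adjusted p = 0.0263).

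The defining markers of mononuclear cells were detected: all 15 T cell, all 6 B cell, 11 of 12 NK cell and 11 of 13 monocyte markers measured were well above background on all 8 arrays. In lame against normal crossbred arrays 4 of 15 T cell and 6 of 12 NK cell markers fell and 0 rose, where 6.33% of all genes were called lower and 3.28% higher. The T cell genes CD8A (-1.38), CD3G (-1.02) and CD2 (-0.83) and the NK cell genes NKG7 (-1.44), NCR3 (-1.28) and FASLG (-1.17) were among them. Of 13 monocyte markers 4 rose, the complement gene C1QB (1.55) among them, and 2 fell, the endotoxin receptor genes CD14 (-1.56) and TLR4 (-1.71). Summed T cell signal was 122.6 to 146.5 in lame, 204.4 to 216.5 in normal crossbred and 113.6 to 114.3 in Tharparkar arrays, and summed NK cell signal was 52.3 to 96.4 in lame, 154.5 to 167.6 in normal crossbred and 65.3 to 70.2 in Tharparkar arrays. Normal crossbred arrays were thus high in T cell and NK cell markers and low in PRSS57. Summed B cell signal was 100.4 to 166.0 in lame, 161.1 to 161.3 in normal crossbred and 172.0 to 193.6 in Tharparkar arrays. These sums too follow the brightest probes, such as that of CD247 among the T cell markers (6.78 and 6.66 in normal crossbred arrays).

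In normal crossbred against Tharparkar arrays, 11 T cell markers were higher and 1 lower, and 6 NK cell markers were higher and 0 lower, where 11.8% of all genes were called higher and 6.88% lower. They included the interleukin-7 receptor IL7R (1.92), CD3G (1.66) and CD8B (1.43) of T cells and CTSW (1.91), NCR3 (1.54) and CD244 (1.52) of NK cells. Of 13 monocyte markers, 2 were higher there and 2 lower, with CX3CR1 at 1.54, LGALS3 at 0.77 and C1QA at -0.80. In lame against Tharparkar arrays, where 12.6% of all genes were called higher and 10.7% lower, 1 T cell marker was higher (IL7R, 2.83-fold) and 1 lower (CD5, log2 difference -0.88). Of the NK cell markers 3 were higher and 0 lower, namely CTSW (0.96), CD244 (0.76) and GZMA (1.81), the last of which was well above background on 1 of 2 Tharparkar arrays. Of the monocyte markers 5 were higher, among them CX3CR1 (1.03), and 2 lower, TLR4 (-2.48) and CD14 (-1.62). Of 6 B cell markers, 0 were called in lame against normal crossbred arrays, where 3.28% of all genes were called higher and 6.33% lower. At an unadjusted p under 0.05, 1 was lower there (limma), against 2377 of all 15137 genes. CR2 rose (1.49) and MS4A1 fell (-0.93) in lame against Tharparkar arrays. Of 4 eosinophil, basophil and mast cell markers, ALOX15, a lipoxygenase, fell in lame against normal crossbred arrays (-1.38) and was higher in normal crossbred than in Tharparkar arrays (2.08), and the transcription factor GATA1 was higher in lame (1.33) and normal crossbred (1.97) than in Tharparkar arrays. Platelet markers were higher in lame (4 of 6) and normal crossbred arrays (3 of 6) than in Tharparkar arrays, with 1 of 6 higher and 0 lower in lame against normal crossbred arrays. VWF, the von Willebrand factor, differed by 0.89 in lame against normal crossbred, 2.79 in lame against Tharparkar and 1.90 in normal crossbred against Tharparkar arrays. The integrin subunit ITGB3 (1.98) and the tubulin TUBB1 (2.20) were higher in lame, and ITGB3 (1.53) and platelet factor PF4 (0.73) in normal crossbred than in Tharparkar arrays. Of 9 erythroid markers, 2 rose and 0 fell in each lame comparison, and 0 were higher and 1 lower in normal crossbred than in Tharparkar arrays. The erythroid factor KLF1 rose in lame against normal crossbred arrays (0.93) and was lower in normal crossbred than in Tharparkar arrays (-0.91). BLVRB rose in lame against normal crossbred arrays (0.69), and the globin HBB (1.34) and the heme synthesis enzyme ALAS2 (2.21) in lame against Tharparkar arrays. The part of these shifts in the results for the granule genes was not tested.

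Genes with the pattern most like each member were found by the root mean square (RMS) difference over the 8 arrays after each gene was centred on its mean, as a description. For TGM3, whose own RMS about its mean was 1.75, they were FOSB (0.15), RUFY4 (0.19) and GADD45G (0.27). FOSB, a subunit of the AP-1 transcription factor, averaged 2.13 in lame, 4.80 in normal crossbred and 5.82 in Tharparkar arrays. For ELANE (own RMS 0.99) they were ARSG (0.19), CDCA3 (0.23) and RUBCNL (0.24), and for TCN1 (own RMS 1.11) ARPC3 (0.15), CRISPLD2 (0.18) and IGF2BP3 (0.24). CATHL1 (own RMS 1.39) was nearest to FOSL2 (0.30), ARG2 (0.39) and ETS2 (0.43), and CATHL4 (own RMS 1.12) to PIMREG (0.29), the chemokine GRO1 (0.40) and the endotoxin receptor TLR4 (0.42). FOSL2, another AP-1 subunit, was also among the nearest of CATHL3 (0.53), after RASEF (0.29) and CDHR5 (0.38).

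PRSS57 (own RMS 1.79) was nearest to PAX6 (0.48), PCDH1 (0.59) and LRATD1 (0.61). BPI (own RMS 0.84) was nearest to GOLGA7B (0.07), NAPRT (0.17) and SELP (0.19), the P-selectin of platelets and endothelium and a member of the platelet list. SELP averaged 1.64 in lame, 1.51 in normal crossbred and 0.47 in Tharparkar arrays. CATHL2 (own RMS 1.03) was nearest to CCR8 (0.24), ATP4B (0.34) and CAMK1 (0.36), and CATHL6 (own RMS 0.62) to ZC2HC1B (0.23), BCAN (0.25) and RCC1 (0.25). No gene of the azurophil, specific or gelatinase granule lists was among the nearest genes named for any member. Only a few of all genes tested were named for each member, so this absence could not tell whether members varied with these lists. Such shared variation was not tested.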

How the data were processed

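Expression was measured on 8 one-colour Agilent arrays of PBMC RNA. Each array's deposited file holds the intensity of every spot; per the file headers, background was subtracted and a spatial trend removed within each array, and arrays were not scaled to each other. Agilent Feature Extraction is at version 12.0.3.1 in these headers and at 11.5.1.1 in the submitters' processing notes. A log2 table that the authors deposited does not state its scale, centring or direction; it followed the values below minus each probe's median over the arrays, had column medians of -0.12 to 0.88, and served as an alternative.

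Signals were taken as log2 minus the array's 75th percentile over 43653 noncontrol probes. 35 probes with an outlier flag were left out, and 0 spots were saturated. The filter on dim probes left 24658. Names came from RefSeq genes of ARS-UCD2.0 by accession (27054 probes matched 1 gene, the other 16599 bear their original names); the array annotation is on another assembly, so no coordinates are given. The 3 groups were fitted together in R 4.3.3 by the limma 3.58.1 functions lmFit and eBayes without covariates (residual degrees of freedom 5, prior 2.35). The fit was also run on simulated data. These had independent arrays, so they cannot tell how the fit handles duplicates of 1 RNA. The number of arrays limits the precision.

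The members and the 14 lists were chosen with earlier results of these data known. Named from each list are, in each comparison, up to 3 called genes with the largest absolute fold change; all members, CATHL5 and CATHL7 are always named, and for each member the 3 genes nearest in pattern. A called gene of the gelatinase granule list is not reported here. S100A8, S100A9 and S100A12 were named after their values were seen. The last number in the titles marks the slide, per the file headers, and deviations from group means of arrays on the same slide correlated at 0.21 to 0.27 between groups, so the fit with the slide as a block is given where it changed a call.

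Alternatives were quantile normalization, other percentiles, filters, probes, blocks, weights, the deposited log2 table and arrays left out in turn. The normexp alternative used the median spot signal with the background median and an offset of 50, in place of the planned mean spot signal.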

Additional observations from a re-analysis of the deposited data

How the results depend on the processing

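Members called were 5 in lame against normal crossbred, 6 in lame against Tharparkar and 2 in normal crossbred against Tharparkar arrays, among 1455, 3522 and 2830 genes. With the slide as a replicate block they were 4, 5 and 2, among 1002, 2907 and 2271 genes. ELANE (lame against normal crossbred) and CATHL3 (lame against Tharparkar) were then not called, and the block changed no other member's call. In the same order of comparisons, normexp gave 3, 6 and 1 members among 628, 1974 and 1292 genes, and no filter gave 3, 4 and 2 among 356, 1351 and 997. Averaged duplicates gave 2, 5 and 1 among 167, 533 and 375. There every gene has the same variance, so calls follow the fold change. A random block for the lame RNA number gave 3, 4 and 2 among 718, 2250 and 2437. Array weights gave 9, 7 and 8 among 7311, 8473 and 9437. Lame R1 alone gave 9, 7 and 5 among 7166, 8380 and 8746, and lame R2 alone 5, 8 and 5 among 7001, 8789 and 7148. These fits keep duplicates and drop or down-weight the other lame RNA. A 2-fold minimum gave 5, 6 and 1 among 815, 1865 and 1846. The mean of a gene's probes left 3 members in lame against normal crossbred arrays, and probes detected on all 8 arrays left 3 in lame against Tharparkar arrays, since 4 members then have no probe. With all probes fitted, 5328 and 4358 probes were called in the comparisons with Tharparkar. Leaving out each array in turn gave 2 to 7, 4 to 6 and 1 to 4 members among 179 to 1812, 849 to 3913 and 715 to 3969 genes. The lowest counts came without an array of a normal group.

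All reversed signs were of values not called with all 8 arrays. BPI with array weights (adjusted p = 0.0229) and for lame R1 alone (0.00974), and CATHL2 against Tharparkar for lame R2 alone (0.00562), passed with the opposite sign, in fits that rest on the duplicates of 1 lame RNA or on weights. In lame against normal crossbred arrays, BPI was -0.012 with the mean of its probes, -0.82 with array weights, -0.88 for lame R1 alone and -0.31 to 0.43 with an array left out, and CATHL2 was 0.062 for lame R2 alone. Normal crossbred against Tharparkar gave -0.21 for CATHL2 with normexp and -0.11 for TCN1 with the mean of its probes. In lame against Tharparkar arrays, CATHL2 was 0.76 for lame R2 alone and -0.93 to 0.076 with an array left out. CATHL6 was 0.046 with the percentile over detected probes, 0.072 for lame R2 alone and -0.46 to 0.17 with an array left out. The causes were not tested. The median of all genes moved to 0.31, 0.22 and -0.21 without the filter, and in lame against Tharparkar arrays to -0.16 with normexp and 0.13 with the percentile over detected probes. Low signal over background limits CATHL1, CATHL3 and CATHL4 to bounds in lame arrays.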
